A study of Mus musculus with 4 samples.

Results

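The 9 genes Slc3a1, Slc3a2, Slc7a7, Slc7a8, Slc7a9, Slc7a13, Slc6a18, Slc6a19 and Slc1a1, which encode amino acid transporters of the kidney, were taken by name and described across all cell clusters and mice of a single nucleus RNA sequencing study of mouse kidney cortex. These are 9 of the 19632 gene rows of the deposited table, and all 9 were in it. The rule used names only and no measured value, although the names were chosen with earlier results of these data known. The table gives 1 mean level per gene for each of 23 clusters in each of 4 mice, 92 values per gene.

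The study compared 4 male mice, 1 in each group, of which 2 carried TRE-hKLF6 alone (control) and 2 carried CAG-rtTA,TRE-hKLF6 (hKLF6OE), in which human KLF6, a zinc finger transcription factor, can be induced in all tissues. All 4 mice received doxycycline, the inducer, in the diet. In each genotype 1 mouse was given a single injection of aristolochic acid I (AAI), a plant nephrotoxin that damages DNA in proximal tubule cells, and its kidneys were taken the next day, and the other mouse is labelled as untreated. The driver is not restricted to the tubule, so a difference between genotypes can arise in any cell. With 1 mouse per group, no difference between conditions has a replicate check, no p-value was calculated, and each difference below compares single animals.

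The proximal tubule reclaims nearly all filtered amino acids. At the brush border, the heavy chain rBAT (Slc3a1) pairs with the light chain b0,+AT (Slc7a9) to take up cystine and dibasic amino acids, and defects of either cause cystinuria. At the basolateral side, the heavy chain 4F2hc (Slc3a2) pairs with y+LAT1 (Slc7a7, mutated in lysinuric protein intolerance) and with LAT2 (Slc7a8), which export dibasic and neutral amino acids. B0AT1 (Slc6a19, mutated in Hartnup disorder) takes up neutral amino acids with sodium and needs collectrin (Tmem27) to reach the apical membrane, Slc6a18 is its close relative in later segments, EAAT3 (Slc1a1) takes up glutamate and aspartate, and AGT1 (Slc7a13) is a light chain of the straight segment that pairs with rBAT.

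Levels are in counts per 10000, the mean over the nuclei of 1 cluster in 1 mouse after each nucleus was scaled to that total. Such a mean does not separate fewer nuclei with the transcript from less transcript per nucleus. Numbers of nuclei per value were not used here, so the depth is unknown and no interval can be given. The 7 proximal tubule clusters comprise 2 early (PT-S1-S2-1 and PT-S1-S2-2), 3 late (PT-S3-1, PT-S3-2 and PT-S3-3) and 2 injured (InjuredPT-A and InjuredPT-B), and the other 16 clusters hold loop of Henle, distal, collecting duct, glomerular, endothelial and immune cells. The summed markers of the proximal tubule (Lrp2, Cubn, Slc34a1 and Hnf4a) were highest in PT-S1-S2-1 (mean of 4 mice 90.5) and PT-S1-S2-2 (86.0), and the late markers (Cyp7b1, Cntnap5a and Slc22a7) in PT-S3-2 (44.1). Cyp7b1 made up most of that sum (41.2), and among the late clusters PT-S3-1 had a low sum (3.27), although Cntnap5a alone was highest there (2.73). Proximal tubule markers also reached 51.4 in the endothelial cluster EC-1 and 45.1 in DCT_CNT, clusters named for cells that should lack them. No row is named for human KLF6, so induction of the transgene could not be checked in this table; mouse Klf6 averaged 0.215, 0.406, 0.137 and 0.327 over the 5 normal proximal tubule clusters in the control, control AAI, hKLF6OE and hKLF6OE AAI mouse. The clusters were drawn by the authors from the expression of all genes in the same nuclei, and Slc7a13 was among the markers they used to name PT-S3, so differences between clusters are given as descriptions.

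In the GRCm38 annotation the 9 genes lie on 6 chromosomes. Slc3a1 is at chr17:85028376-85064236 on the plus strand, Slc7a9 at chr7:35448796-35466036 (plus) and Slc7a13 at chr4:19818725-19842218 (plus). Slc1a1 is at chr19:28835049-28913960 (plus) and Slc3a2 on the same chromosome at chr19:8706882-8723369 (minus). Slc6a19 (chr13:73679745-73704865) and Slc6a18 (chr13:73661752-73678023) are neighbours on the minus strand, 1.72 kb apart. Slc7a7 (chr14:54369442-54417780) and Slc7a8 (chr14:54722209-54781946), both on the minus strand, are 304 kb apart. The spans run from 16.3 kb in Slc6a18 to 78.9 kb in Slc1a1. This matters for nuclear RNA, in which introns are counted, so levels were not compared between genes.

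Promoters were looked up because rBAT and b0,+AT form one transporter while their genes showed opposite gradients along the tubule (below). The RefSeq promoter table (GRCm38.p6, 250 bases before to 50 after each start site) held entries for 7 of the 9 genes; Slc7a13 and Slc6a18 had none. The plus strand windows are Slc3a1 at chr17:85028097-85028396 and the first of the Slc7a9 entries at chr7:35448842-35449141. Capitals mark matches on either strand to the half-site GTTAAT of the HNF1 factors and to CAAAGTCCA, a form of the HNF4 element.
Slc3a1: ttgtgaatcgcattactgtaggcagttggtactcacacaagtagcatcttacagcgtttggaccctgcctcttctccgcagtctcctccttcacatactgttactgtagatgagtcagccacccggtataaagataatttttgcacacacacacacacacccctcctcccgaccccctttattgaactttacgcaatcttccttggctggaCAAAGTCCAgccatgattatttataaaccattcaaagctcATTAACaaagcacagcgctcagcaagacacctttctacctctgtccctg
Slc7a9: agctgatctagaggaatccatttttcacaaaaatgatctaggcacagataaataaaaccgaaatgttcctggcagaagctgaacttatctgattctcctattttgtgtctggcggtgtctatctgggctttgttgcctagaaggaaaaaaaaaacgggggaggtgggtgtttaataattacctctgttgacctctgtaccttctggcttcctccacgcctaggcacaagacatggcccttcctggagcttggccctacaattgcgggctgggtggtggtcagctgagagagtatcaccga
The Slc3a1 window held CAAAGTCCA from base -39 to -31, a match present in 0.475% of the 32817 promoters of the table. It also held the reverse complement of GTTAAT at bases 1 to 6, a match present in 7.10% of promoters. The Slc7a9 window held neither. GTTAAT was also in a window of Slc7a7, at bases -86 to -81, although Slc7a7 was higher in the early clusters (below). Only exact matches were counted, and near matches were not looked for. The KLF-type motif CCNCNCCC, on either strand, was in at least 1 window of Slc7a9, Slc6a19, Slc3a2, Slc7a7 and Slc7a8 and in no window of Slc3a1 or Slc1a1, against 49.5% of all promoters. That share is per window, while Slc7a7 and Slc7a9 had more than 1 window each, so the genes cannot be counted against it. These are matches of letters only.

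**Figure D1:**
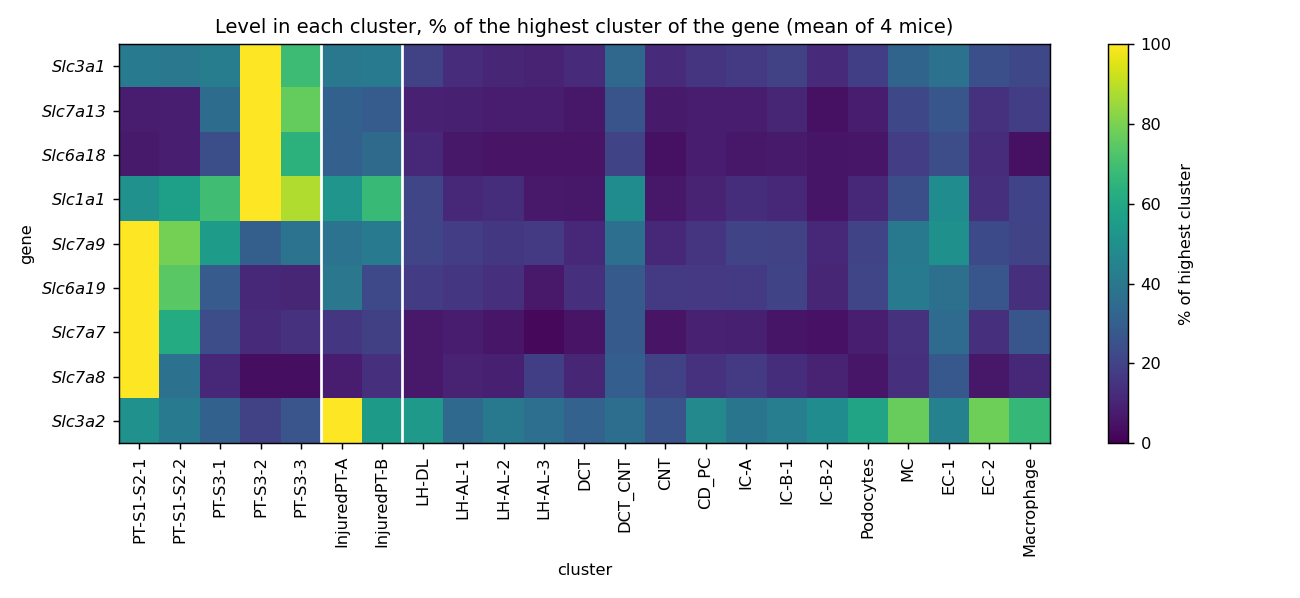
Mean level over 4 mice of each gene (rows) in each of the 23 clusters (columns), as a percentage of the highest cluster of that gene; white lines set off the 5 normal and the 2 injured proximal tubule clusters. Peaks of 4 genes lay in PT-S3-2, 4 in PT-S1-S2-1, and Slc3a2 in InjuredPT-A. The means of the injured clusters include the uninjured mice.

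Of the 9 genes, 8 had their highest mean level in a normal proximal tubule cluster. Slc3a1, Slc7a13, Slc6a18 and Slc1a1 were highest in PT-S3-2, and Slc7a9, Slc6a19, Slc7a7 and Slc7a8 were highest in PT-S1-S2-1. Slc3a2 had its highest mean in InjuredPT-A, a mean that includes the uninjured mice. In the control AAI mouse it was 1.87 both there and in the mesangial cluster. In the hKLF6OE AAI mouse it was 1.42 there and 1.69 in EC-2. The genes thus fell into an early and a late group, and partners of one transporter were not always in the same group.

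Slc3a1, the brush border heavy chain, stood at 4.49, 5.86, 5.47 and 6.35 in PT-S3-2 of the control, control AAI, hKLF6OE and hKLF6OE AAI mouse, the order used throughout. In PT-S3-3 it was 2.51, 4.73, 2.57 and 5.40, and the ranges of these clusters overlapped, although PT-S3-2 was higher within each of the 4 mice. In the other 3 normal clusters it lay between 2.03 and 2.60 in all mice, with no order between them that exceeded their spread. Its light chain Slc7a9 ran the other way, at 2.47, 2.31, 2.05 and 1.44 in PT-S1-S2-1 and at 0.795, 0.588, 0.704 and 0.429 in PT-S3-2. Every mouse had more Slc7a9 in the early cluster, and the ranges did not overlap. Slc7a13, the late light chain, followed Slc3a1: it was 25.8, 28.3, 21.7 and 22.8 in PT-S3-2 and 20.7, 22.2, 13.9 and 18.6 in PT-S3-3, against 2.01, 1.86, 2.26 and 1.63 in PT-S1-S2-1. PT-S3-1 lay between, at 13.5, 9.92, 9.09 and 2.38, with the hKLF6OE AAI mouse far below the others.

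Slc7a7, the basolateral exporter of dibasic amino acids, was 12.9, 11.6, 8.84 and 13.3 in PT-S1-S2-1 and 8.77, 7.48, 5.76 and 6.71 in PT-S1-S2-2, and these ranges did not overlap. In PT-S3-2 it was 2.12, 1.10, 1.64 and 0.863. Slc7a8, the neutral amino acid exporter, was narrower: 8.98, 7.08, 6.94 and 7.08 in PT-S1-S2-1, 2.34, 3.1, 2.12 and 3.76 in PT-S1-S2-2, and no more than 0.397 in PT-S3-2 in any mouse. Their shared heavy chain Slc3a2 had no comparable peak in the normal tubule, with 0.856, 0.788, 1.04 and 0.859 in PT-S1-S2-1 and 0.324, 0.330, 0.348 and 0.340 in PT-S3-2. It was lower in the late cluster in every mouse, but its highest levels were elsewhere: 1.87 and 1.42 in InjuredPT-A of the control AAI and hKLF6OE AAI mouse, a mean of 1.37 in EC-2 and 1.35 in the mesangial cluster, whose ranges overlapped with those of InjuredPT-A.

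The neighbouring genes Slc6a19 and Slc6a18 were mirror images along the tubule. Slc6a19 was 5.60, 4.48, 4.23 and 4.15 in PT-S1-S2-1, 3.81, 3.92, 2.94 and 3.08 in PT-S1-S2-2, and 0.674, 0.512, 0.568 and 0.406 in PT-S3-2. Slc6a18 was 0.737, 0.918, 0.514 and 0.678 in PT-S1-S2-1 and 10.4, 9.89, 8.09 and 11.5 in PT-S3-2. Neither gene's early and late ranges overlapped between these clusters. Slc6a19 has an opposite-strand neighbour over 5.04 kb, Slc6a19os, whose mean level was at most 0.0214 in any proximal tubule cluster.

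Slc1a1, the glutamate transporter, had a shallow gradient, as Slc3a1 did. It was 8.25, 6.84, 6.45 and 6.49 in PT-S3-2, 6.24, 6.63, 4.48 and 7.33 in PT-S3-3 and 4.63, 2.91, 3.38 and 3.22 in PT-S1-S2-1. PT-S3-2 and PT-S3-3 could not be ordered, since PT-S3-2 was higher in 3 of 4 mice. The gene overlaps 4430402I18Rik on the opposite strand over 20.9 kb. The strand setting of the counting is not given in the sources used here, so it is not known whether reads of the pair were kept apart. 4430402I18Rik was itself at 2.82, 1.48, 2.21 and 1.16 in PT-S3-2.

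**Figure D2:**
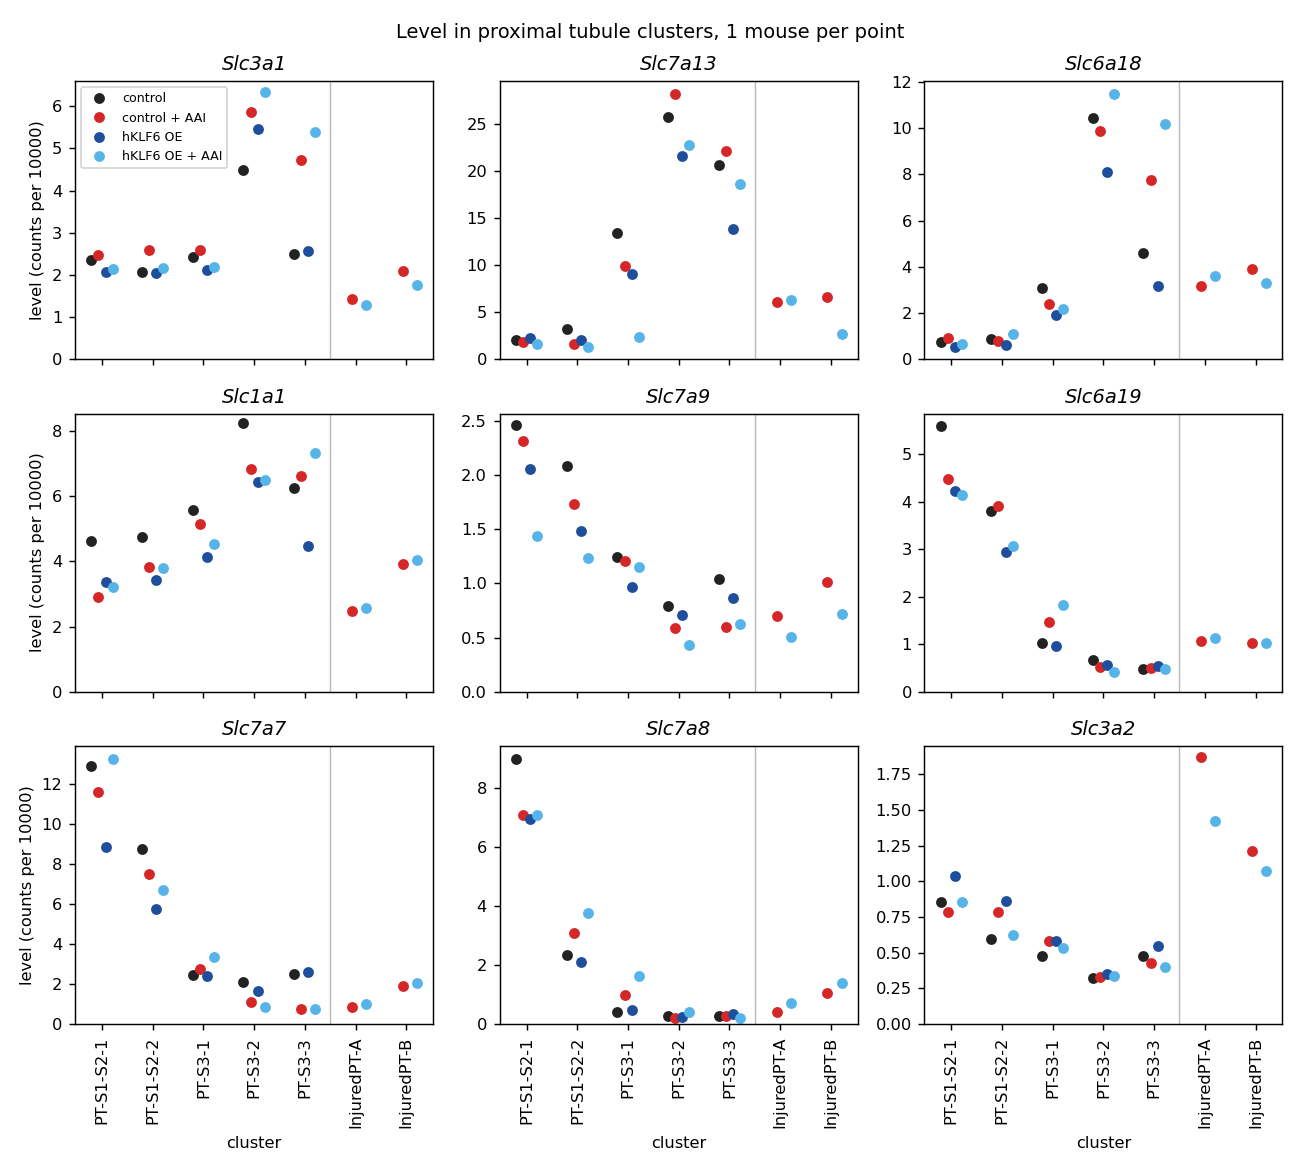
Level of each gene (y axis, counts per 10000, linear and from 0) in the 5 normal and 2 injured proximal tubule clusters (x axis), 1 point per mouse; injured clusters are shown for the AAI mice only. Slc3a1, Slc7a13, Slc6a18 and Slc1a1 rise to the right within the normal clusters and Slc7a9, Slc6a19, Slc7a7 and Slc7a8 to the left.

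To put the segments side by side, the mean of the 2 early clusters was compared with the mean of the 3 late clusters within each mouse, as a difference of log2(level + 1). A gene was counted as different when it reached 0.5 counts per 10000 on 1 side and differed by at least 0.2 in the same direction in all 4 mice. All 9 genes met this, 5 higher early and 4 higher late, against 22.8% of the 3637 genes that could be compared (12.4% higher early and 10.4% higher late). The early group was Slc7a8 (2.32, 2.03, 2.02 and 1.88), Slc7a7 (1.81, 2.05, 1.37 and 2.04), Slc6a19 (1.73, 1.51, 1.44 and 1.28), Slc7a9 (0.69, 0.75, 0.58 and 0.43) and Slc3a2 (0.28, 0.31, 0.39 and 0.29). The late group was Slc7a13 (-2.53, -2.94, -2.33 and -2.66), Slc6a18 (-1.96, -2.04, -1.78 and -2.25), Slc1a1 (-0.44, -0.72, -0.45 and -0.66) and Slc3a1 (-0.37, -0.61, -0.52 and -0.84). Every difference kept its sign in all 4 mice, and Slc3a2 had the smallest differences.

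Of 39 other amino acid and peptide transporters listed, 36 were in the table and 13 had enough signal for this comparison, of which 3 were higher early and 4 higher late. Slc16a10, an aromatic amino acid exporter, was higher early by 1.56, 1.78, 1.11 and 1.65 on the log2 scale. Slc43a2, a neutral amino acid facilitator, was higher early by 1.45, 1.36, 1.32 and 1.61, and the creatine transporter Slc6a8 by 0.50, 0.58, 0.41 and 0.60. The neutral amino acid transporter Slc6a15 was higher late (-0.98, -0.93, -1.07 and -1.02), as were Slc1a4, Slc6a13 and Slc6a20a. Slc6a20a has a close copy, Slc6a20b, with which it can share reads. Collectrin (Tmem27), the partner of Slc6a19 and Slc6a18, was higher early by 0.57, 0.65, 0.58 and 0.69, a much smaller gradient than that of either transporter. Its mean level was 6.02 in PT-S1-S2-1 and 2.69 in PT-S3-2, the lowest of the 23 clusters, below LH-AL-1 (3.91) and podocytes (3.80). The source of this RNA was not tested.

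InjuredPT-A and InjuredPT-B were compared with the normal clusters in the 2 AAI mice only, since 40.8% to 62.6% of genes were at 0 in these clusters of the uninjured mice. The sum of the injury markers Havcr1, Krt20, Cxcl1, Il34 and Polr2a was 31.1 and 27.2 in InjuredPT-A and 16.3 and 20.0 in InjuredPT-B, against at most 8.40 in any normal proximal tubule cluster of the AAI mice. Single markers were read as means of 4 mice, which include the sparse values of the uninjured mice. On that measure most of the sum in InjuredPT-A was Polr2a (12.6). Havcr1 (0.073) and Krt20 (0.025) were near 0 there, and Il34 (1.44) was below its level in PT-S3-1 (3.68). Havcr1, Krt20, Cxcl1 and Il34 were highest in InjuredPT-B on the same measure. The reference was the mean of the 5 normal clusters of the same mouse.

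In InjuredPT-A 8 of the 9 transporters were lower in both mice and Slc3a2 was higher, against 43.3% of 5008 genes higher and 27.0% lower. The median difference was -0.80 in the control AAI mouse and -0.51 in the hKLF6OE AAI mouse for the 9 genes, and 0.19 and 0.15 for all genes. Against this reference the basolateral light chains had the largest deficits. Slc7a7 was at 0.862 and 0.994 against 4.74 and 4.99 (log2 difference -1.62 and -1.59), and Slc7a8 was at 0.402 and 0.728 against 2.33 and 2.62 (-1.25 and -1.07). At the brush border, Slc3a1 was at 1.42 and 1.30 against 3.65 and 3.65 (-0.94 and -1.02). Its partners Slc7a13 (-0.96 and -0.51) and Slc7a9 (-0.43 and -0.39) were lower as well. Slc1a1 differed by -0.80 and -0.77, Slc6a19 by -0.62 and -0.49 and Slc6a18 by -0.36 and -0.42. The heavy chain Slc3a2 went the other way, at 1.87 and 1.42 against 0.582 and 0.550 (0.86 and 0.65). The basolateral heavy chain was thus higher in the cluster where Slc7a7 and Slc7a8 were lower against this reference.

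The reference decides some of these values. Against the 3 late clusters alone, Slc6a19 in InjuredPT-A was higher by 0.18 and 0.16, and against the 2 early clusters alone Slc7a13 was higher by 1.37 and 1.56 and Slc6a18 by 1.16 and 1.29. Slc3a1, Slc1a1, Slc7a7, Slc7a8 and Slc7a9 were below, and Slc3a2 above, either reference. Against the late clusters, however, neither Slc7a8 (-0.08 and -0.01) nor Slc7a9 (-0.08 and -0.20) passed in both mice. The order of sizes turned as well, with Slc3a1 at -1.16 and -1.30 and Slc7a7 at -0.45 and -0.42 against the late clusters. The proximal tubule markers themselves summed to 19.2 and 30.04 in InjuredPT-A, against 31.0 to 85.1 in the normal clusters of the AAI mice. Markers of the ascending limb (Slc12a1, Umod, Enox1 and Thsd4) summed to 10.4 and 14 in InjuredPT-A of the AAI mice, against 3.74 to 9.50 in their normal proximal tubule clusters, and the share of counts from mitochondrially encoded genes was 1.84% and 2.35% against 0.627% to 1.59%. Their part in the result was not tested. Slc3a2 was also high in several clusters outside the proximal tubule (below).

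Sorted by genomic span, the 4 transporter genes of 30 to 100 kb (Slc3a1, Slc1a1, Slc7a7 and Slc7a8) were lower in InjuredPT-A by a median of -1.09 and -1.04, and the 5 genes under 30 kb by a median of -0.43 and -0.42. Among all genes the medians were 0.12 and 0.03 for 30 to 100 kb and 0.47 and 0.46 for under 30 kb. All 4 longer genes were lower, against 23.2% of the 1891 genes of that span, and 4 of the 5 shorter genes were lower, against 6.27% of 1993. These counts hold for the mean of the 5 normal clusters as reference. Of the shorter genes, Slc6a19 was higher against the late clusters alone, and Slc7a13 and Slc6a18 against the early clusters alone (above). Slc7a9 and the longer gene Slc7a8 did not pass in both mice against the late clusters.

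Of the other transporters 13 had enough signal in InjuredPT-A, of which 10 were lower and 2 higher. Slc38a2, a glutamine and alanine transporter known to respond to amino acid starvation, was at 2.26 and 2.12 against 0.368 and 0.540 (1.25 and 1.02). Slc6a8 was higher by 0.45 and 0.63. The largest deficits were in Slc6a20b, a proline transporter (-1.44 and -1.20), and Slc6a15 (-1.19 and -1.02). Tmem27 was higher, at 7.81 and 7.47 against 4.11 and 3.26 (0.79 and 0.99), while Slc6a19 and Slc6a18 were lower against this reference, though not against every reference (above). Mean levels of Tmem27 were also 8.50 in the mesangial cluster and 6.30 in EC-2, above every normal proximal tubule cluster.

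**Figure D3:**
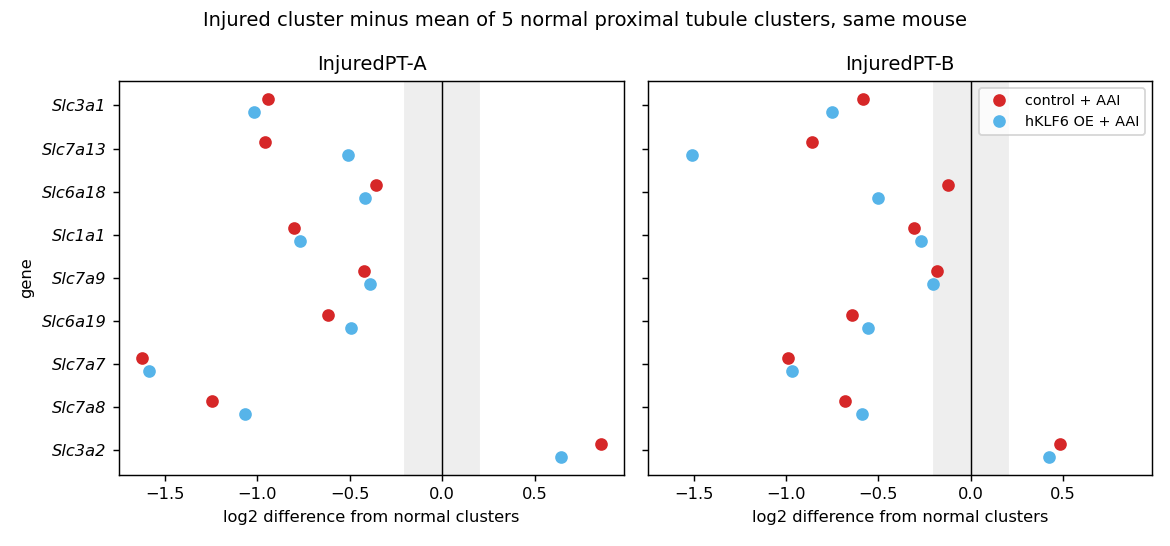
Log2 difference (x axis, log2 of level + 1) of each gene between an injured cluster and the 5 normal clusters averaged, 1 point per AAI mouse; the grey band spans -0.2 to 0.2. Slc3a2 is the one gene to the right of the band in both panels.

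InjuredPT-B differed from the normal clusters in the same directions with smaller sizes for most genes: 6 transporters were lower in both mice and Slc3a2 was higher, against 23.4% of 4148 genes higher and 13.1% lower. The medians were -0.58 and -0.56 for the 9 genes and 0.11 and 0.10 for all genes. Slc7a7 was at 1.89 and 2.06 (-0.99 and -0.97) and Slc7a8 at 1.07 and 1.40 (-0.68 and -0.59). Slc7a13 was at 6.61 and 2.64 (-0.86 and -1.51), the one gene with a larger deficit here than in InjuredPT-A in the hKLF6OE AAI mouse by more than 0.2. Slc3a1 (-0.58 and -0.75), Slc6a19 (-0.64 and -0.56) and Slc1a1 (-0.31 and -0.27) were lower, and Slc3a2 was higher by 0.48 and 0.42. Slc6a18 (-0.12 and -0.50) and Slc7a9 (-0.18 and -0.21) did not pass in both mice. Proximal tubule markers summed to 32.3 and 22.4 in InjuredPT-B, at the low end of or below the 31.0 to 85.1 of the normal clusters, and their part in the result was not tested. The name of this cluster is the least sure. Here too the reference matters, since Slc6a19, Slc7a7 and Slc7a8 were higher in InjuredPT-B than in the late clusters alone, and Slc7a13 and Slc1a1 higher than in the early clusters alone. Slc3a1 was below either reference, but against the early clusters alone (-0.19 and -0.19) it did not pass. Of 14 other transporters with enough signal 7 were lower and 2 higher, Slc38a2 (0.68 and 0.54) and Slc38a6 (0.24 and 0.32).

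Over the normal proximal tubule as a whole, few of the 9 genes differed with AAI in both genotypes. In the control genotype, the mean of the 5 normal clusters was higher with AAI for Slc3a1, at 3.65 against 2.77 (0.30), and lower for Slc7a7, at 4.74 against 5.75 (-0.23), so 1 of 9 was past 0.2 in each direction, against 11.7% of 4052 genes higher and 456 genes lower. In hKLF6OE mice Slc6a18 was 5.12 against 2.86 (0.66), Slc3a1 3.65 against 2.85 (0.27) and Slc7a8 2.62 against 2.03 (0.26), so 3 of 9 passed, all higher, against 19.5% of 4133 genes higher and 15.4% lower. Slc3a1 was the one transporter past the threshold in both genotypes, where 13.5% of 3892 genes passed in the same direction. These genotype comparisons share no mouse.

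The differences lay in single clusters. In PT-S3-3, 4 of the 6 genes with enough signal passed in the same direction in both genotypes, 2 higher and 2 lower, against 25.9% of 3954 genes. Slc3a1 was higher with AAI in PT-S3-3 by 0.71 in control and 0.84 in hKLF6OE mice. Slc6a18 there was 4.59 without and 7.74 with AAI in control mice (0.64), and 3.15 and 10.2 in hKLF6OE mice (1.43). Slc7a7 was lower in PT-S3-3, at 2.50 without and 0.771 with AAI in control mice (-0.98) and 2.59 and 0.775 in hKLF6OE mice (-1.02), and Slc7a9 was lower by -0.36 and -0.20. Slc7a7 was also lower in PT-S3-2 (-0.57 and -0.50), the one transporter called there in both genotypes, where 7.18% of 3760 genes were lower. In PT-S3-3 of the AAI mice, proximal tubule markers summed to 35.4 and 31.0, against 87.1 and 64.3 in the mice without AAI. Late markers summed to 12.2 and 20.9 there with AAI, against 5.12 and 4.90 without. Cyp7b1 made up most of this late sum (mean of 4 mice 8.40 of 10.8). Slc3a1 and Slc6a18 were thus closer to their levels in PT-S3-2 with AAI, whereas Slc7a7 ended below its level there. The part of the marker shift in these differences was not tested.

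In PT-S3-1, 3 genes differed. Slc7a13 in PT-S3-1 was lower with AAI by -0.40 in control and -1.58 in hKLF6OE mice, against 8.97% of 3836 genes lower. Slc7a8 was higher by 0.48 and 0.82 and Slc6a19 by 0.28 and 0.53, against 10.8% higher. The early markers Slc5a12 and Slc5a2 summed there to 3.66 and 9.13 without and with AAI in control mice and to 3.34 and 25.8 in hKLF6OE mice, and late markers to 6.36 and 1.12, and 4.93 and 0.663. Their part in the result was not tested. In PT-S1-S2-2 Slc7a8 was higher (0.29 and 0.61, background 7.38% of 3782) and Slc7a13 lower (-0.68 and -0.40, background 5.45%). In PT-S1-S2-1, the cluster with most Slc7a7, Slc7a8, Slc7a9 and Slc6a19, none of the 9 passed in both genotypes, against 9.6% of 3873 genes.

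**Figure D4:**
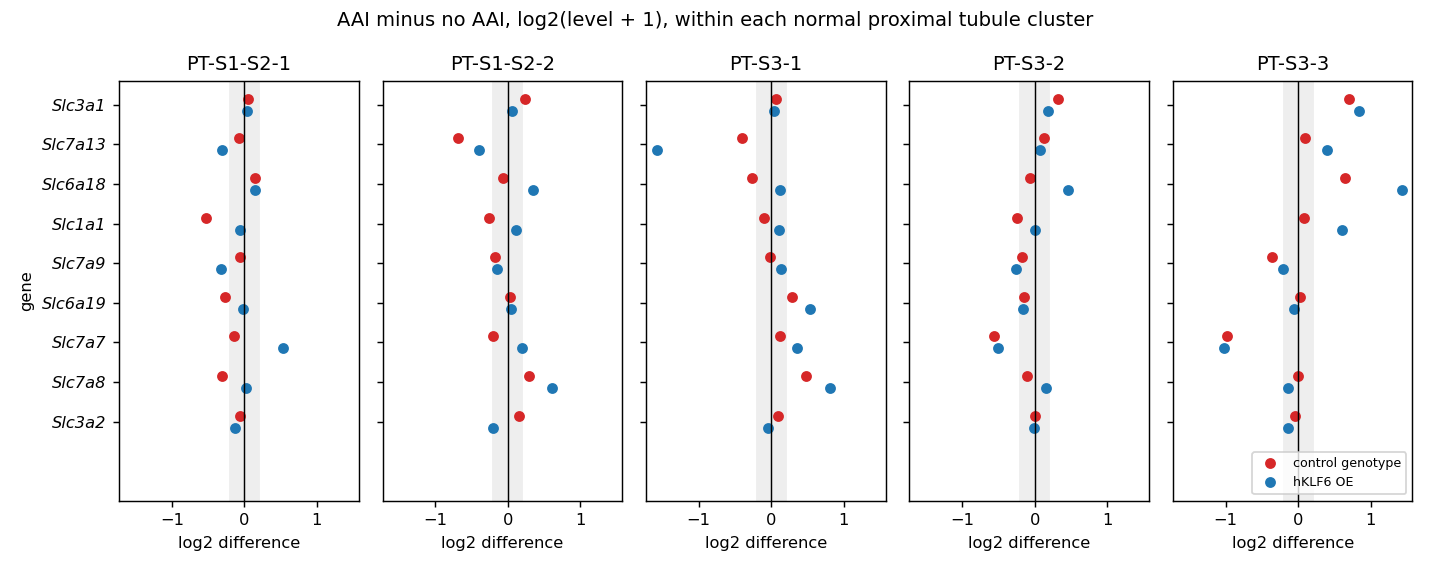
Log2 difference with AAI minus without (x axis, log2 of level + 1) for each gene and each normal proximal tubule cluster, 1 point per genotype and each point 1 mouse against 1 mouse; the grey band spans -0.2 to 0.2. Most points lie in or near the band, and those outside it in both genotypes include Slc3a1, Slc6a18 and Slc7a7 in PT-S3-3, Slc7a7 in PT-S3-2, and Slc7a13 and Slc7a8 in PT-S3-1 and PT-S1-S2-2.

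Without AAI, the hKLF6OE mouse had lower levels than the control mouse for 5 of the 9 transporters over the 5 normal clusters and a higher level for none, against 9.33% of 4041 genes lower and 7.84% higher. Slc7a13 averaged 9.78 against 13 (-0.38), Slc1a1 4.37 against 5.89 (-0.36), Slc6a18 2.86 against 3.95 (-0.36), Slc7a7 4.25 against 5.75 (-0.36) and Slc6a19 1.85 against 2.32 (-0.22). The median over the 9 was -0.22, and over all genes -0.03. Slc1a1 was lower in each of the 5 clusters, by -0.40 to -0.31, where 3.31% of 3349 genes were lower in all 5. Slc7a13 and Slc6a18 were each lower in 4 of 5 clusters. Of 13 other transporters 4 were lower (Slc6a20b, Slc36a1, Slc16a10 and Slc43a2) and none higher. Proximal tubule markers were lower too in the hKLF6OE mouse, for example 86.4 against 107 in PT-S1-S2-1 and 70.0 against 95.5 in PT-S3-1, and the mitochondrial share was higher, at 3.17% against 2.24% and 1.98% against 1.42%. Their part in the result was not tested. The clusters of 1 mouse are not replicates of a genotype.

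With AAI, 2 of 9 passed between genotypes: Slc7a13 at 9.36 against 12.8 (-0.41) and Slc7a9 at 0.975 against 1.29 (-0.21), with 7.74% of 3942 genes lower. Slc1a1 was then 5.07 in both genotypes. Slc7a13 was the one transporter lower in hKLF6OE mice both without and with AAI over the 5 clusters, against 1.92% of 3690 genes. Its difference was -0.52 and -1.69 in PT-S3-1 (2.87% of genes lower under both conditions), -0.54 and -0.24 in PT-S3-3 (2.44%) and -0.24 and -0.30 in PT-S3-2 (1.75%), in PT-S1-S2-2 it was -0.47 and -0.19, and in PT-S1-S2-1 it was 0.11 and -0.12. In PT-S3-1 of the hKLF6OE AAI mouse, where Slc7a13 was lowest, the late markers stood at 0.663 as given above. In PT-S1-S2-2, Slc6a19 (-0.29 and -0.27) and Slc7a9 (-0.32 and -0.29) were lower in hKLF6OE mice under both conditions, against 3.34% of 3651 genes.

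All 9 transcripts were also found outside the proximal tubule, together with the proximal tubule markers. To read past this, each level was divided by the summed proximal tubule markers of the same cluster and mouse and set against the same ratio in the normal proximal tubule, so that RNA from 1 source gives a value near 1. For Slc7a13 the median over the 16 clusters was 0.994, from 0.657 to 1.28 as medians over 4 mice, and in no cluster were all 4 mice above 1. Slc6a18 gave 0.826 (0.330 to 0.992) and likewise had no such cluster. Slc1a1 had 2 such clusters, Slc3a1 3 and Slc7a9 5. Outside the proximal tubule, Slc7a13 and Slc6a18 thus did not exceed its markers in all 4 mice in any cluster.

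Slc3a2, Slc7a8 and Slc6a19 exceeded the markers in many clusters. For Slc3a2 the ratio was 1.64 to 9.53, and all 4 mice were above 1 in 15 of 16 clusters; in the remaining cluster, macrophages, the control AAI mouse was at 0. Slc7a8 exceeded 1 in all mice in 9 clusters, with 4.28, 3.32, 3.93 and 3.95 in the connecting tubule, 3.22, 6.88, 2.63 and 5.25 in LH-AL-3 and 2.81, 3.76, 1.19 and 2.92 in type A intercalated cells. The level of Slc7a8 in the connecting tubule was 1.65, 1.13, 1.66 and 1.43, above PT-S3-2 and PT-S3-3 in each mouse. Slc6a19 had 9 such clusters, but over a narrow range of 0.761 to 2.46. Slc7a7 exceeded the markers in all 4 mice in macrophages alone (1.76, 1.46, 1.15 and 1.96), where its level was 3.86, 2.54, 2.32 and 3.80. Genes at 0 made up 60.5% to 63.4% in LH-AL-3 and 38.3% to 63.4% in macrophages over the 4 mice, so these ratios are less certain. An early gene is above 1 wherever the proximal tubule RNA in a cluster comes more from early than from late segments. A late gene such as Slc7a13 or Slc6a18 is then below 1. Neither was tested.

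**Figure D5:**
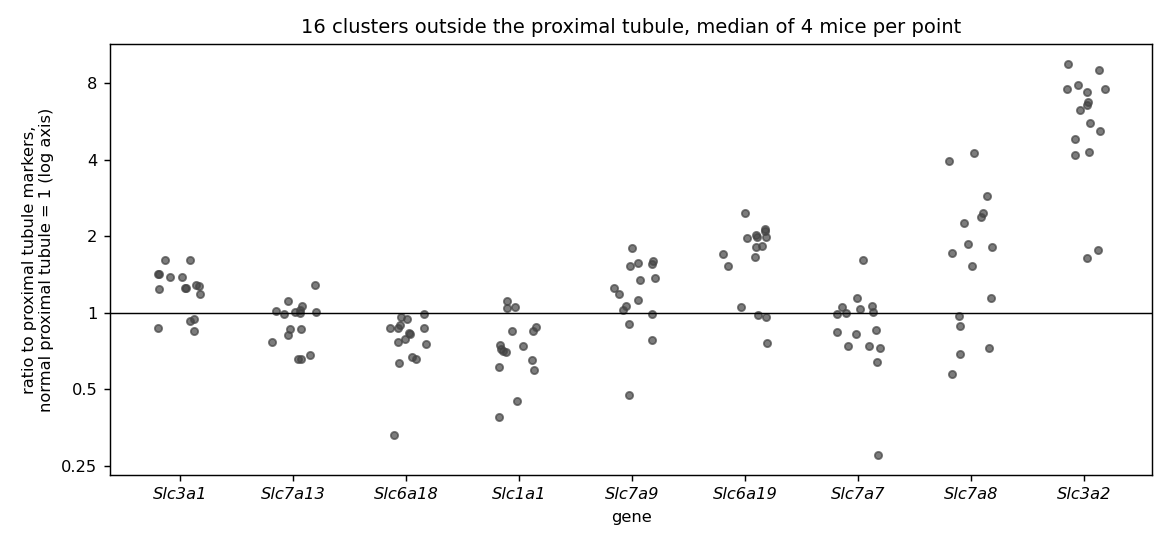
Ratio of each gene to the summed proximal tubule markers (y axis, log scale, normal proximal tubule set to 1) in the 16 clusters outside the proximal tubule, 1 point per cluster as the median of 4 mice, spread sideways for sight. Slc3a2 lies above 1 in every cluster and Slc6a18 in none.

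The likeness of patterns was measured as Pearson's r of log2(mean of 4 mice + 1) over the 23 clusters, with 8103 genes compared. The points share free RNA between clusters and segment identity, so r is a description. Slc3a1 was most like the vitamin C transporter Slc23a1 (0.98) and Slc16a9 (0.97), Slc7a13 most like the monocarboxylate transporter Slc5a8 (0.98) and Acsm3 (0.98), and Slc6a18 most like Aspg (0.97) and Atp11a (0.96). Slc1a1 was most like Hgd, an enzyme of tyrosine breakdown, and the efflux pump Abcc2 (both 0.98). Of the early genes, Slc7a9 was most like Tmem106a and the bicarbonate transporter Slc4a4 (both 0.96), Slc6a19 most like Gatm, the first enzyme of creatine synthesis, and Lipa (both 0.95), and Slc7a7 most like Ppp1r16b (0.96) and Gldc (0.95). Slc7a8 was most like the aromatic amino acid exporter Slc16a10 (0.89) and 4921539H07Rik (0.88), and Slc3a2 most like the chaperone Calr (0.92) and Ctsl (0.91). With the 2 uninjured mice alone, the most alike gene was the same for 3 of the 9, Slc3a1, Slc7a13 and Slc6a19. Between members, r was 0.95 for Slc6a18 with Slc7a13, 0.95 for Slc3a1 with Slc1a1 and 0.91 for Slc7a9 with Slc7a7. For the heterodimer partners it was 0.88 for Slc3a1 with Slc7a13, 0.66 for Slc3a1 with Slc7a9, 0.15 for Slc3a2 with Slc7a7 and -0.04 for Slc3a2 with Slc7a8.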

How the data were processed

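Single nucleus RNA sequencing libraries from the kidney cortex of 4 mice were made in 1 batch. The authors mapped reads to a mouse pre-mRNA reference (mm10) with Cell Ranger, removed nuclei with under 200 or over 6000 genes or over 10% mitochondrial counts, and used Seurat for clustering. The methods describe no doublet step for the RNA libraries. The deposited signal values are mean counts per 10000 of the nuclei of each cluster in each mouse, and the function used for averaging is not given in the sources used here. Cluster names follow the order of the sheets in the study's table of cluster markers and were checked on marker genes; for InjuredPT-B the match is less sure. Each column summed to 10000, and 23 rows with date-like names were left out, which leaves 19609.

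Differences were taken as log2(value + 1) between single mice or between clusters of a mouse, with a minimum of 0.5 on 1 side and a threshold of 0.2 (Python 3.11.15, pandas 2.3.3); the procedure was checked on simulated data. Fold sizes on this scale understate the change of low genes. Alternatives were the pseudocount, the minimum, the threshold, the clusters averaged and the reference. The genes named are the 9 members, the listed accessory proteins and other transporters with enough signal, and the 2 genes most like each member. Members and lists were chosen with earlier results of these data known. Comparisons of single clusters, the ratio to proximal tubule markers, and the likeness with uninjured mice were chosen after seeing the data, as were the marker sums and span classes set beside results.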

Additional observations from a re-analysis of the deposited data

Results flagged for a closer look

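Slc6a18 in PT-S3-3 differed between genotypes in opposite directions without and with AAI. The log2 difference of hKLF6OE against control was -0.43 without AAI, from levels of 3.15 and 4.59, and 0.35 with AAI, from levels of 10.2 and 7.74. It rests on 1 mouse per group and the difference between the conditions was not tested. Of the 3602 genes compared in this cluster under both conditions, 4.61% passed the threshold in opposite directions.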

How the results depend on the processing

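Of 1314 recomputed differences of the 9 genes, 1084 kept their side of the threshold and 141 kept the direction but no longer passed. Another 64 newly passed and 25 that had passed turned direction. The cause was not tested. Turns of differences that had not passed are not among the 25. For example, in InjuredPT-B of the control AAI mouse 2 negative differences became positive, Slc7a9 (0.17 against the late clusters) and Slc6a18 (1.40 against the early clusters). No paired analysis was possible because each group is 1 mouse. Early against late, 9 genes passed at 0.2 and 5 at a threshold of 0.5 or of 1. In InjuredPT-A 2 passed at 1, and in InjuredPT-B 0. For AAI in control mice, 2 genes passed. A pseudocount of 0.1 gave 4 and a threshold of 0.5 or 1 gave 0. PT-S3-1 alone gave 4, where 31.6% of all genes passed, PT-S1-S2-2 alone 5 (28.0%) and PT-S3-3 alone 4 (41.5%). For AAI in hKLF6OE mice, 3 passed. The pseudocount of 0.1 gave 7, and thresholds of 0.5 and 1 gave 1 and 0. The early clusters gave 5, the late clusters 5 and PT-S3-3 alone 6, where 50.1% of all genes passed. For hKLF6OE against control without AAI, 5 passed. The pseudocount of 0.1 gave 8, and thresholds of 0.5 and 1 gave 0. The late clusters gave 3, PT-S3-1 alone 3, where 18.7% of all genes passed, and PT-S3-3 alone 3 (21.5%). With AAI, 2 passed. A minimum of 2 gave 1, and thresholds of 0.5 and 1 gave 0. The early clusters gave 1, as did PT-S1-S2-1 alone, where 21.5% of all genes passed, and PT-S3-2 alone (16.4%). Shares of all genes are given in this paragraph for single clusters only. Divided by proximal tubule markers, 5 rather than 8 genes were highest in a normal proximal tubule cluster.

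Among differences that had passed, directions turned as follows (control AAI, then hKLF6OE AAI, where both). For InjuredPT-A against late clusters, Slc6a19 gave 0.18 and 0.16; against early clusters, Slc7a13 gave 1.37 and 1.56 and Slc6a18 1.16 and 1.29; against the uninjured mouse, Slc6a18 gave 0.24 in hKLF6OE. For InjuredPT-B against late clusters, Slc6a19 gave 0.16 and 0.094, Slc7a7 0.18 and 0.20 and Slc7a8 0.48 and 0.46; against early clusters, Slc7a13 gave 1.47 and 0.56, Slc1a1 0.17 and 0.16 and Slc6a18 1.20 in hKLF6OE, and against the uninjured mouse Slc6a18 gave 0.16. With AAI in control mice, Slc7a7 gave 0.11 in PT-S3-1; with AAI in hKLF6OE mice, Slc7a8 gave -0.14 in PT-S3-3. For hKLF6OE against control without AAI, Slc7a13 gave 0.11 in PT-S1-S2-1, and Slc6a19 0.066 and Slc7a7 0.037 in PT-S3-3; with AAI, Slc7a9 gave 0.023 in PT-S3-3.

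Numbers of nuclei and depth are not in the values used here, so no precision can be attached to any level, and levels near 0 in small clusters are the least certain. With 1 mouse per group, differences between mice, genotype and treatment cannot be told apart.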
